A study of Mus musculus with 19 samples.

Results

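The natriuretic peptide system was followed through 7 genes in 5-hmC maps of mouse CMCs (cardiomyocytes): the hormone genes *Nppa* and *Nppb*, the processing proteases *Corin* and *Furin*, and the receptors *Npr1*, *Npr2* and *Npr3*. They are 7 of 21000 protein-coding genes with a curated transcript, chosen by name as a pathway, with earlier results of these data known, and by no threshold on a measured value. The measurement was taken over the annotated span of each gene with 10 kb on each side, here called its window, and over the 60 kb centred on *Nppb* and *Nppa*. A peak counted as a member's when it shared at least 1 bp with the window, which held for 410 of the 1000847 peaks in the 8 lists. A peak in the overlap of the *Nppa* and *Nppb* windows is counted once in this total and in each of the genes' own numbers.

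5-hmC (5-hydroxymethylcytosine) was profiled by hMeDIP-seq, in which an antibody precipitates DNA that carries the mark before sequencing. All CMCs came from C57BL/6J mice, and there were 2 peak lists for each of 4 points. The points were E14.5 embryos, neonatal pups of 1 to 2 days, adults of 2 months, and adults 1 week after TAC (transverse aortic constriction), in which the aorta is tied narrower so that the heart pumps against pressure and thickens. According to the methods, the adult and TAC CMCs came from males, and each preparation was enriched for CMCs rather than pure. No group carried a transgene or a knockout. The other 11 of 19 samples, inputs and control-vector libraries, had no peak list used here.

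Atrial natriuretic peptide (from *Nppa*) and brain natriuretic peptide (from *Nppb*) are hormones that heart muscle releases when it is stretched. They lower blood pressure and blood volume through guanylyl cyclase receptors that make cyclic GMP. Both genes are switched on in the embryonic ventricle, fall silent or low after birth and return in hypertrophy, which makes them the textbook markers of the fetal gene programme. 5-hmC is made from 5-mC by TET enzymes and marks gene bodies (GB) and enhancers. A 5-hmC peak is not a level of expression, and no RNA was analysed here.

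The 8 lists held 104215 to 153637 peaks and covered 65.1 to 119 Mb. They gave positions and no read numbers, so the depth behind each peak could not be used and no interval could be set on a covered share. TAC replicate 2 stood apart. It covered the least, 65.1 Mb, held 3 peaks on the mitochondrial genome where the other lists held 0, and had 1.07 CpG per 100 bp of peak against 1.31 to 1.59 in the others. Its peaks were also displaced. Per bp of distance, its peak centres lay 1.66 to 4.11 times as often 400 to 700 bp from the centres of another list as within 150 bp of them, and this ratio was 0.0387 to 0.215 in the 21 pairs of lists without it. Tests and orders of lists are also given without it. A region called in both TAC replicates needs it, so for those regions the peaks of TAC replicate 1 are given instead. The cause of its difference was not tested. The list headers also fell into 4 that scaled the control library and 4 that scaled the precipitated library. The first set was both E14.5 lists, neonatal replicate 1 and adult replicate 1, so this split and the contrast of E14.5 with TAC cannot be told apart. As a check on the labelled cell type, the windows of 5 CMC genes (*Myh6*, *Actn2*, *Tnnt2*, *Ryr2*, *Ttn*) had median coverages of 15.5, 33.1, 17.0 and 11.6% from E14.5 to TAC. Those of 5 fibroblast genes (*Vim*, *Col1a2*, *Tcf21*, *Pdgfra*, *Dcn*) had 1.81, 2.19, 0.760 and 1.04%, and only 1 of them was covered in all 8 lists. Windows of 5 endothelial and endocardial genes (*Pecam1*, *Cdh5*, *Kdr*, *Tek*, *Nfatc1*) had 9.74, 11.9, 5.15 and 3.80%. All 5 of these and all 5 CMC genes were covered in all 8 lists. The median window of all genes tested was covered for 3.03 to 4.85% per list. The part of other cells in the members' peaks was not tested.

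The sequences on which the *Nppa* and *Nppb* results turn are shown first. The first line is the stretch between the genes that peaks of 6 lists covered. The next is the middle of a longer stretch past the end of *Nppa* that also lay under peaks of 6 lists. The last lines are the promoters of the hormone genes, 300 bases around the start site, from RefSeq. All are on the plus strand of GRCm38, the assembly of mm10, written 5′ to 3′ with each CpG in capitals, since CpG is where most 5-mC and 5-hmC is found.
Between Nppb and Nppa, chr4:147992042-147992316: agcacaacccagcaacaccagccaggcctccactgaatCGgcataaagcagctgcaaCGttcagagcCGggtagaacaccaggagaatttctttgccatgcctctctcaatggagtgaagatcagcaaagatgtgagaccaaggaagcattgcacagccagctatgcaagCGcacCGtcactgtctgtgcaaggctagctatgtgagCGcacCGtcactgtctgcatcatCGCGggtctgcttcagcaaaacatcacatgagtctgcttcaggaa
Between Nppa and Clcn6, chr4:148003827-148004126: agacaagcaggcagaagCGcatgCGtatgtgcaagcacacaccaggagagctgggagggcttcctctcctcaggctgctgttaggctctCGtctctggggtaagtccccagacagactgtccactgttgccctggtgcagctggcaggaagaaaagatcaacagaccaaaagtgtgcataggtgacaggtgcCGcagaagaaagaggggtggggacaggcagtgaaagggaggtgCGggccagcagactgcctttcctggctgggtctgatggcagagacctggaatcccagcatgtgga
Nppb promoter, chr4:147985650-147985949: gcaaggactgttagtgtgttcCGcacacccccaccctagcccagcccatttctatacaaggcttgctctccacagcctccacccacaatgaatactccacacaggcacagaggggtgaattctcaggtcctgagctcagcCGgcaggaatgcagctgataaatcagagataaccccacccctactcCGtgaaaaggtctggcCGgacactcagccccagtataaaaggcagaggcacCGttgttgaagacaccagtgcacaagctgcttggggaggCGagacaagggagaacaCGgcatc
Nppa promoter, chr4:148000472-148000771: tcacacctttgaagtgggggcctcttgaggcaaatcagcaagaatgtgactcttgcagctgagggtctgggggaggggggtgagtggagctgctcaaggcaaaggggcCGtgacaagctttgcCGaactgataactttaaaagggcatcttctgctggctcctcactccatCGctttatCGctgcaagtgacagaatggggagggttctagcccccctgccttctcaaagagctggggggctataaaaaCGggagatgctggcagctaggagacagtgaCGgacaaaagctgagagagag

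*Nppa* and *Nppb* lie head to tail on chromosome 4, both read to the right. *Nppb* spans chr4:147985900-147987205 and *Nppa* spans chr4:148000722-148002074, with 13.5 kb between them. *Clcn6*, a chloride and proton exchanger gene read in the opposite direction, follows *Nppa* and was the only other gene in the 60 kb (chr4:147963987-148023986). The bulk of this neighbourhood carried no peak, and 70.8% of its bases were under no list. The 8 lists held 44 peaks there, in 18 separate stretches. Of these, 8 were called in a single list and 2 in 6 lists, and none was called in more than 6.

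The hormone genes differed from each other in where the peaks lay. The body of *Nppb* carried no peak in any of the 8 lists, nor did the 1 kb on either side of its start site. The body of *Nppa* carried a peak at its start in 3 lists: E14.5 replicate 2, neonatal replicate 2 and TAC replicate 1. These peaks covered 35.0, 48.2 and 43.3% of the *Nppa* span, and the other 5 lists covered 0% of it. Each point with a peak on the *Nppa* body thus had it in 1 of 2 replicates, and the adult lists had none. Within 1 kb of the *Nppa* start site, adult replicate 2 also had a peak, making 4 lists. A peak within 1 kb of a start site was found in 17.4 to 24.7% of all protein-coding genes per list.

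**Figure D1:**
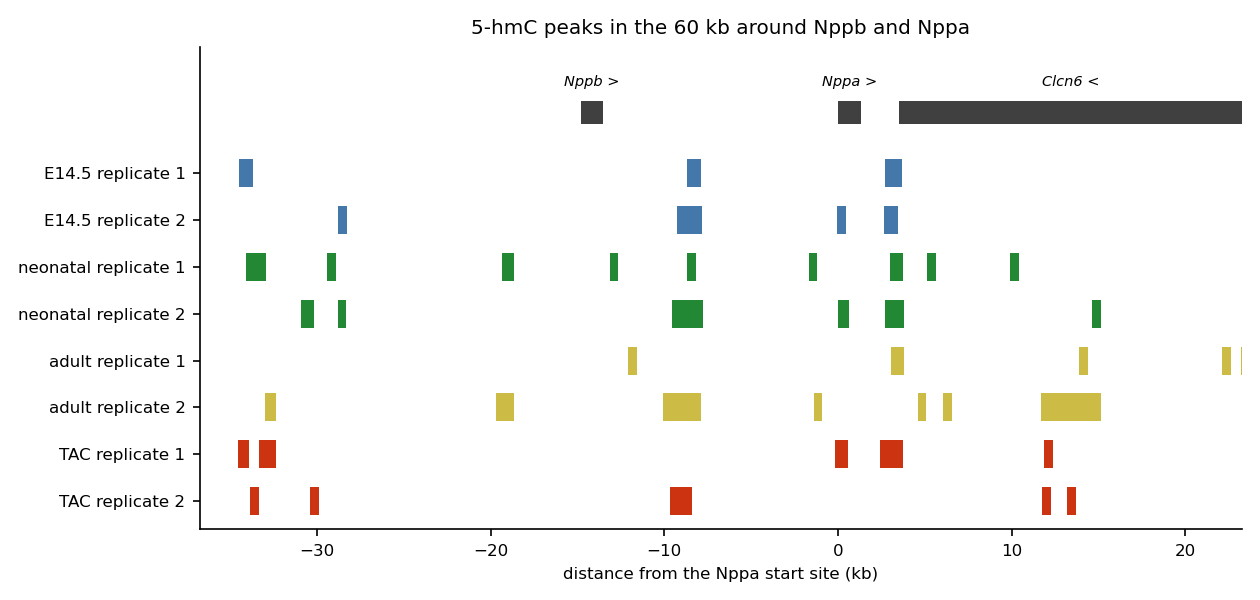
Peaks of each list in the 60 kb around Nppb and Nppa, by distance from the Nppa start site in kb; black bars are genes with the direction of reading, and the Clcn6 bar runs off the right edge. Peaks of 6 lists stack at -8.5 kb and at 3.3 kb, and none touches Nppb.

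The first recurrent stretch, chr4:147992042-147992316, is 275 bp long with 9 CpG and lies at -8.54 kb from the *Nppa* start and at 6.28 kb from that of *Nppb*. It was under peaks in both E14.5 lists, both neonatal lists, adult replicate 2 and TAC replicate 2. The second, chr4:148003757-148004196, is 440 bp long with 9 CpG and lies between *Nppa* and *Clcn6*, 3.26 kb past the *Nppa* start. It was under peaks in the E14.5 and neonatal lists, in adult replicate 1 and in TAC replicate 1. Both stretches were thus called in each of the 4 E14.5 and neonatal lists. In adult and TAC CMCs each was called in a single replicate, and in both points the 2 stretches were called in different replicates.

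Of the 60 kb, the E14.5 lists covered 4.33 and 5.41% and the neonatal lists covered 9.29 and 8.69%. Adult CMCs had 3.91 and 14.7% under peaks, and TAC CMCs 6.87 and 5.49%. The neonatal lists lay above both E14.5 lists, and the adult lists spanned all the others. Over the 4 points the difference did not pass the test (p = 0.629, one-sided exact test over all 105 divisions of the 8 lists into 4 pairs, where the smallest possible p is 0.00952). This rested on the spread of the adult pair. A list left alone at its point adds no spread to this test, so leaving out an adult list cannot decide between the points. Without adult replicate 1, and without adult replicate 2, the p was lower than with all lists. Without TAC replicate 2 it was 0.724.

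In the *Nppa* window, peaks of the E14.5 lists covered 8.31 and 12.9% of the bases and those of the neonatal lists 13.0 and 16.4%. Those of the adult lists covered 3.59 and 16.8%, and after TAC they covered 9.64 and 6.03%. The neonatal lists lay above the E14.5 lists, and the adult and TAC values overlapped (exact p = 0.667 over the 4 points, adjusted p = 0.930 over the 19722 genes tested). The *Nppb* window was covered for 3.70 and 6.59% by the E14.5 lists, 7.77 and 8.25% by the neonatal lists, 2.35 and 15.1% by the adult lists and 0 and 6.05% by the TAC lists. TAC replicate 1 thus had no peak in the *Nppb* window at all (exact p = 0.686, adjusted p = 0.944). Without adult replicate 1 the unadjusted p of *Nppb* was 0.0381. The windows of the genes share 6484 bp, which hold the recurrent stretch before *Nppa*, so their values are not independent. Regions called in both replicates of a point are here called common regions. *Nppa* had 2 of them in embryonic and 2 in neonatal CMCs, *Nppb* had 1 and 1, and neither had any in adult or TAC CMCs. TAC replicate 1 alone had 2 peaks in the *Nppa* window and 0 in that of *Nppb*. Of all genes tested, 62.8, 67.4, 58.7 and 42% had a common region from E14.5 to TAC, and 11.3% had one at E14.5 and in neonatal CMCs with none in the adult. Where at least 50% of both peaks had to be shared, the neonatal number fell to 1 for *Nppa* and 0 for *Nppb*. By that rule 57.3, 61.6, 50.5 and 14% of all genes had a common region, and 13.4% had one at both early points with none in the adult (12.4% with none in TAC either).

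In the promoter sequences shown above, *Nppa* has 6 CpG and *Nppb* 7, and the median over 32851 promoters was 7. On both strands, the exact letters GATAAG, a form of the GATA-type motif, had 0 matches in either (present in 7.44% of promoters). The letters TGATAA, also of GATA type, stand in both printed promoters and were not counted. AAGTG, the core bound by NKX2-5, had 2 in *Nppa* and 0 in *Nppb* (46.4%). CATTCC, the core bound by TEAD factors, had 0 in *Nppa* and 1 in *Nppb* (14.7%). The CArG box, bound by SRF, had 0 in either (1.63%). Overlaps between motifs were not removed, and a match or its absence describes only these letters.

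**Figure D2:**
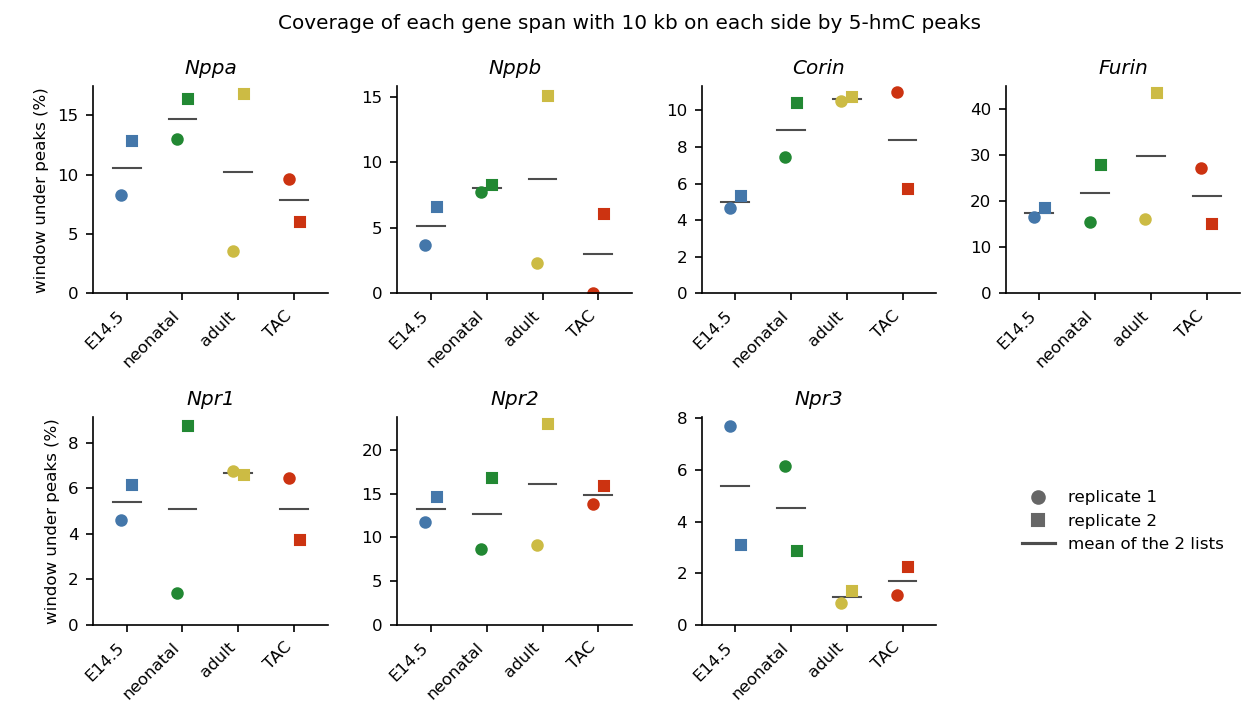
Percent of each window, the gene span with 10 kb on each side, under 5-hmC peaks in each of the 8 lists; circles are replicate 1, squares replicate 2, and lines the mean of the 2 lists, with a separate y axis from 0 for each gene. Corin runs from 4.65 to 11.0%, and in Npr3 the 4 adult and TAC points lie below the 4 earlier ones.

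Corin and furin are the proteases that release the active hormones. *Corin*, a membrane protease of heart muscle that cleaves the precursor of atrial natriuretic peptide, spans 205 kb on chromosome 5 (chr5:72300025-72504540, minus strand). The E14.5 lists covered 4.65 and 5.34% of its window, followed by 7.46 and 10.4% in neonatal CMCs and 10.5 and 10.7% in adult CMCs. The TAC lists covered 11.0 and 5.72%. Each point up to the adult lay above the one before it in both lists, and the TAC replicates fell on either side of the neonatal values. The E14.5 mean was 4.99% ± 0.489 (SD, n = 2). The adult mean was 10.6% ± 0.132 (SD, n = 2). Over the 4 points the difference did not pass the exact test (exact p = 0.190, adjusted p = 0.656). Without TAC replicate 2 the p was 0.0952. The 3 remaining adult and TAC lists then lay above all 4 earlier lists, an order found in 7.37% of all genes tested. With all lists, no member had the adult and TAC lists above the earlier ones (1.71% of genes).

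The *Corin* window held 16 and 20 peaks at E14.5 and 28 and 27 in the neonatal lists. Both adult lists and TAC replicate 1 had 33, and TAC replicate 2 had 20. Of its 210 peaks in all, 188 were centred in introns, 9 in exons and 5 within 1 kb of a start site. Common regions numbered 7, 13, 15 and 5 in the order E14.5, neonatal, adult, TAC. The peaks most shared were in an intron 70.7 kb from the start, where chr5:72433717-72433936 was called in 6 lists, and at -0.947 kb from it, where chr5:72505409-72505565 was called in 6. The latter was missed by neonatal replicate 1 and TAC replicate 2. Per share of the genome that each list covered, *Corin* was at 1.37 and 1.48 times at E14.5 and 2.03 and 2.33 times in neonatal and 3.65 and 2.92 times in adult CMCs, so the order of these points held on that scale. Without the flanks the neonatal lists covered 8.19 and 11.1% of the gene and the adult lists 10.4 and 11.3%, which overlap.

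*Furin*, a ubiquitous protease of the secretory route that can process the precursor of brain natriuretic peptide, spans chr7:80389194-80405436 on the minus strand. Of the 7 genes its window was the most covered in 7 of the 8 lists. Its coverage stood at the 97.6th percentile of the genes tested as the median over lists, and at 91.9 in the lowest list. The E14.5 lists covered 16.6 and 18.5% and the neonatal lists covered 15.6 and 27.8%. Adult CMCs had 16.2 and 43.6% under peaks, and TAC CMCs 27.3 and 15.2%. The replicates of all points but E14.5 were far apart (exact p = 0.895). Adult replicate 2 was the highest, with single peaks of 4781 and 3736 bp. Only 11535 bp of its 36.2 kb window were under no list. Of its 68 peaks, 15 were centred in the neighbouring gene *Fes*. A stretch of 1328 bp with 34 CpG (chr7:80391304-80392631), which takes in exons 12 to 15, was called in 6 lists.

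Sequences of the recurrent regions of the other genes follow, read from the plus strand of GRCm38 with CpG in capitals. They show the only stretch called in all 8 lists (*Npr2*), the most shared *Corin* intron and an *Npr3* stretch that holds no CpG. For *Npr2* and *Npr3*, the middle 300 bases are printed.
Npr2 first exon, chr4:43632444-43632743: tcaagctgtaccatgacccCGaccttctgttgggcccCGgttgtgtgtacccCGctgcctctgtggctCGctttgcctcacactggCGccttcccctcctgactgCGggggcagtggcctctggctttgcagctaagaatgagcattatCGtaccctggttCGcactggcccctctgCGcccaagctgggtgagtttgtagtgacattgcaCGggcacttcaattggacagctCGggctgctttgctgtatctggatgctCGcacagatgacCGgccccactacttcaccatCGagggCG
Corin intron, chr5:72433717-72433936: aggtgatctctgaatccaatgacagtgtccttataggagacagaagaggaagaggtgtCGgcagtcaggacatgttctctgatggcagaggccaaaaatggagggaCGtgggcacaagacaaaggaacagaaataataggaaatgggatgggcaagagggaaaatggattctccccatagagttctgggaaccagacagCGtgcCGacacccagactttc
Npr3 intron without CpG, chr15:11892414-11892713: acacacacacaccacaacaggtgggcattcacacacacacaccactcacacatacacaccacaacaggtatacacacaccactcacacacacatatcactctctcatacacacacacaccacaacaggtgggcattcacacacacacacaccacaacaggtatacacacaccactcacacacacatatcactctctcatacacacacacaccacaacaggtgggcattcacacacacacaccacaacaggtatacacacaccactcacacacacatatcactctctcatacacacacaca

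**Figure D3:**
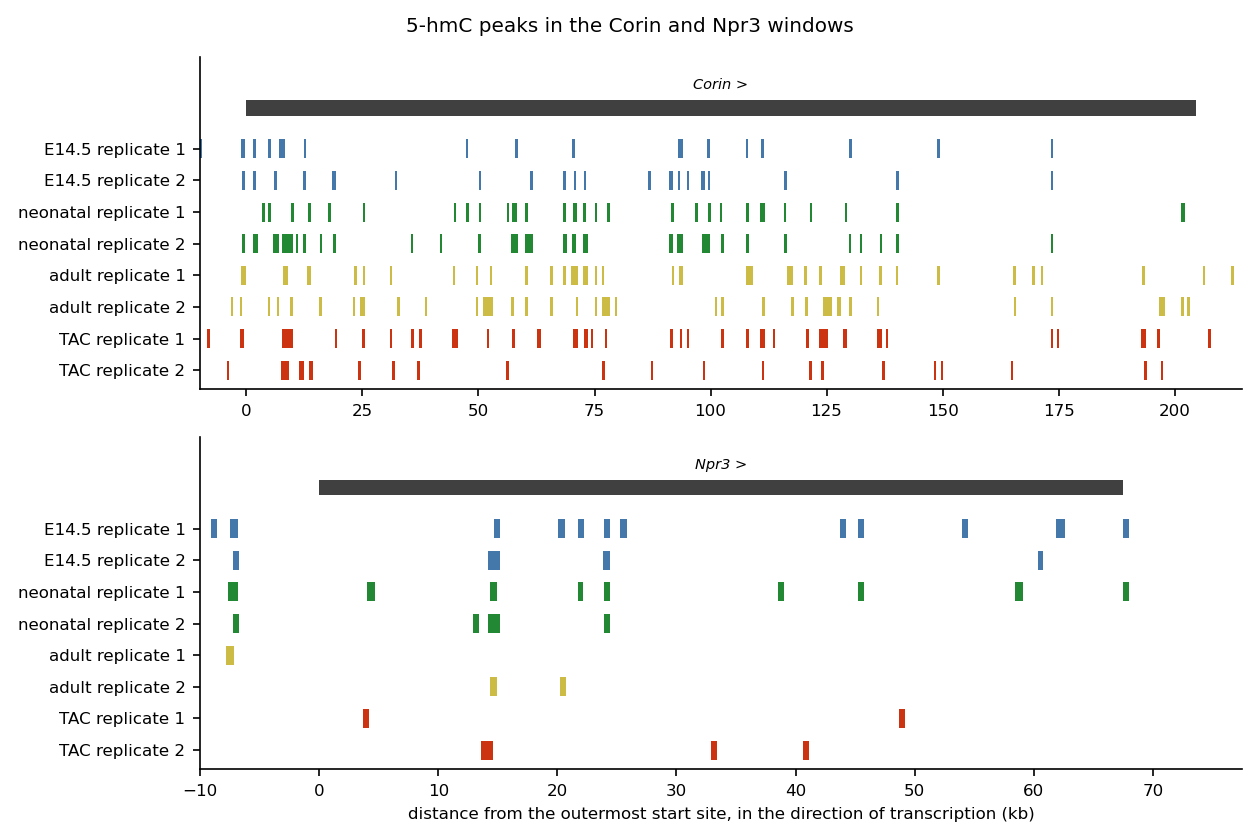
Peaks of each list in the Corin and Npr3 windows, by distance in kb from the outermost start site in the direction of reading; black bars are the genes. Corin has 16 and 20 peaks in the E14.5 and 33 and 33 in the adult lists, and Npr3 has 12 and 4 against 1 and 2.

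The receptors carried their peaks in different places. *Npr3* encodes the receptor without a cyclase domain that takes up and clears the hormones. It spans 67.5 kb (chr15:11839896-11907371, minus strand). Its window was 7.68 and 3.09% covered by the E14.5 lists and 6.16 and 2.88% by the neonatal lists. Adult CMCs had only 0.851 and 1.30% under peaks, and TAC CMCs 1.15 and 2.25%. All 4 adult and TAC lists lay below all 4 earlier lists, an order found in 7.28% of genes tested. The E14.5 and neonatal replicates were themselves more than 2-fold apart, and the difference over the 4 points did not pass the test (exact p = 0.162, adjusted p = 0.637; limma p = 0.102). Without TAC replicate 2 the p was 0.333, and the late lists again lay below the early ones (10.2% of genes). Peak numbers per list ran 12 and 4, 9 and 4, 1 and 2, and 2 and 3 in the order of the points.

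*Npr3* had 3 common regions in embryonic CMCs and 3 overlapping them in neonatal CMCs, and none in adult or TAC CMCs. The share of genes with common regions at both early points and none in the adult is the 11.3% given for *Nppa*, and the TAC count rests on the displaced TAC replicate 2. TAC replicate 1 had 2 peaks in the *Npr3* window. A neonatal common region lay 14.6 kb into the gene and was also met by adult replicate 2 and TAC replicate 2. It holds chr15:11892411-11892716 and chr15:11892783-11893047, each under peaks of 5 lists. The E14.5 common region there, chr15:11892216-11892716, takes in only the first of these stretches. Neither stretch holds a CpG, and both are 100% soft-masked as repeats in the reference. The printed 300 bases are made largely of CA repeats, with 102 CA or TG steps against 52 in the *Npr2* stretch and 56 in that between *Nppa* and *Clcn6*. Another lay at -7.01 kb from the start and was also met by adult replicate 1. No list had a peak within 1 kb of an *Npr3* start site, where 55.7% of protein-coding genes had one in at least 1 list. Peaks without any CpG were 1 of 37 in the *Npr3* window and 7 of 410 over the members, against 1.09 to 4.65% of all peaks per list.

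*Npr1*, the guanylyl cyclase receptor of both cardiac hormones (chr3:90450592-90465866, minus strand), carried all of its 18 peaks on its body or across its start site, and 15 of them were centred in introns. Coverage of its window was 4.62 and 6.15% for E14.5, 1.42 and 8.74% for the neonatal lists, 6.76 and 6.56% for the adult lists and 6.46 and 3.74% for TAC. The adult lists lay above both E14.5 lists and both TAC lists, and the neonatal replicates were the lowest and the highest of all (exact p = 0.914). A stretch of 300 bp with 9 CpG at 1.29 kb from the start (chr3:90464423-90464722, intronic) was under peaks of 6 lists. It was not under a peak in neonatal replicate 1 or TAC replicate 2. TAC replicate 2, whose peaks were displaced, had a peak beside it at chr3:90463411-90464229. *Npr1* had 2 common regions in embryonic and 2 in adult CMCs, and none in neonatal or TAC CMCs. TAC replicate 1 alone had 2 peaks there.

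*Npr2*, the receptor of C-type natriuretic peptide (chr4:43631935-43651437, plus strand), was the only gene of the 7 with a peak within 1 kb of its start site in all 8 lists, as 1.52% of protein-coding genes had. The bases common to all 8 were chr4:43632353-43632834, 482 bp with 24 CpG in the coding part of the first exon. Coverage of the window was 11.8 and 14.6% for E14.5, 8.70 and 16.7% for the neonatal lists, 9.16 and 23.0% for the adult lists and 13.8 and 15.8% for TAC. The points overlapped at every step (exact p = 0.962). It had 5, 3, 3 and 3 common regions from E14.5 to TAC. The first-exon region was common at each point, TAC included.

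**Figure D4:**
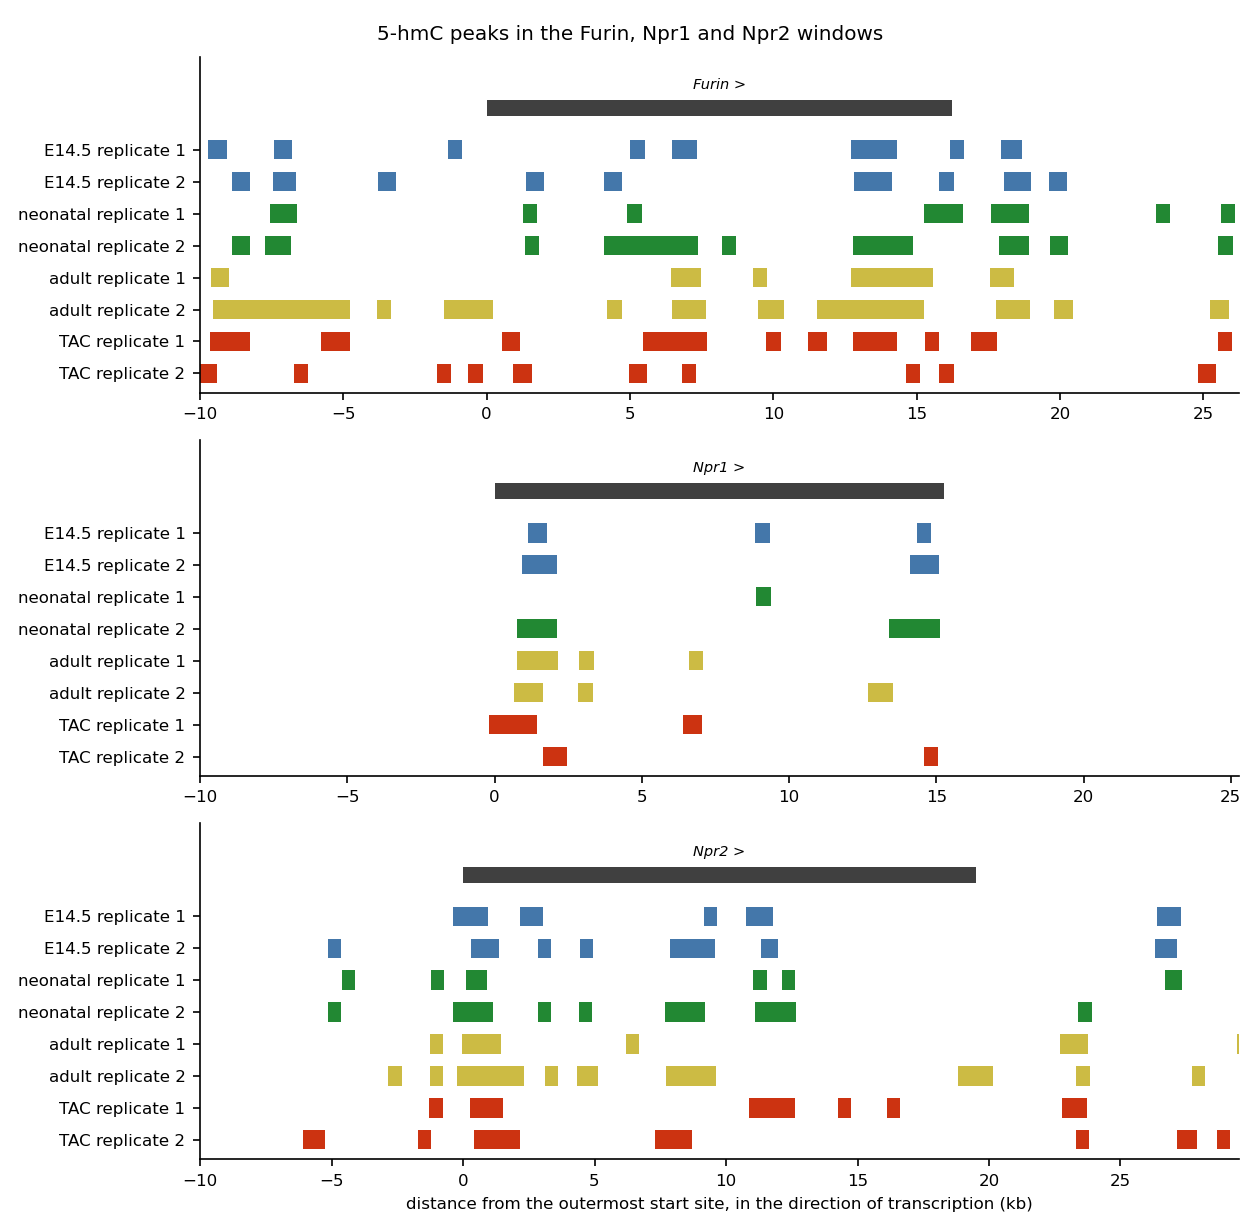
Peaks of each list in the Furin, Npr1 and Npr2 windows, by distance in kb from the outermost start site in the direction of reading; black bars are the genes. Peaks of all 8 lists stack 0.659 kb past the Npr2 start, Npr1 has none beyond its ends apart from its start, and Furin is covered over most of its window.

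Set side by side, the genes' median percentiles of coverage among the genes tested were 97.6 for *Furin*, 89.1 for *Npr2*, 82.6 for *Nppa*, 74.3 for *Corin*, 69.9 for *Nppb*, 63.1 for *Npr1* and 37.2 for *Npr3*. The lists' own ranges overlapped between neighbours in this order. None of the 7 genes reached p under 0.05 over the 4 points in the exact test, where 7.57% of all tested genes did. In limma's moderated F test none did either, the lowest being *Npr3*, where 13.1% of all genes did. Without TAC replicate 2 the exact p ran from 0.0952 for *Corin* to 0.981 for *Npr2*. After adjustment, 0 of 19722 genes passed in either test, and 1492 and 2581 passed unadjusted.

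Between 2 points, 2 lists against 2 cannot reach an exact p below 0.333, so only the order of the lists is given. From E14.5 to neonatal CMCs, both later lists lay above both earlier ones for *Nppa*, *Nppb* and *Corin*, 3 of 7 genes, against 26.2% of all genes tested. None lay below, against 6.86%. From neonatal to adult, *Corin* lay above (15.1% of genes) and *Npr3* below (22.6%). From E14.5 to adult, *Npr1* and *Corin* lay above (28.3%) and *Npr3* below (19.5%). From adult to TAC, no gene lay above (6.34%) and *Npr1* lay below (23.9%). With TAC replicate 1 as the sole TAC list, *Corin* lay above and *Nppb* and *Npr1* below. A list that stands alone meets an order more easily, and the share of all genes was not counted for this setting. Relative to the share of the genome each list covered, with both TAC lists, *Npr1* overlapped from adult to TAC and *Npr3* lay above. With each list reduced to the same number of peaks, *Nppa* and *Nppb* overlapped from E14.5 to neonatal. Each set by scaled library holds a single neonatal and a single adult list, so directions within it compare single lists. The share of all genes with each direction was not counted. Within the lists whose control was scaled, the step from neonatal to adult was higher for 4 genes and lower for 3. Within the other set it was higher for 5 and lower for 2. *Corin*, *Npr2* and *Furin* were higher and *Npr3* lower in both sets, whereas *Nppa*, *Nppb* and *Npr1* turned direction.

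**Figure D5:**
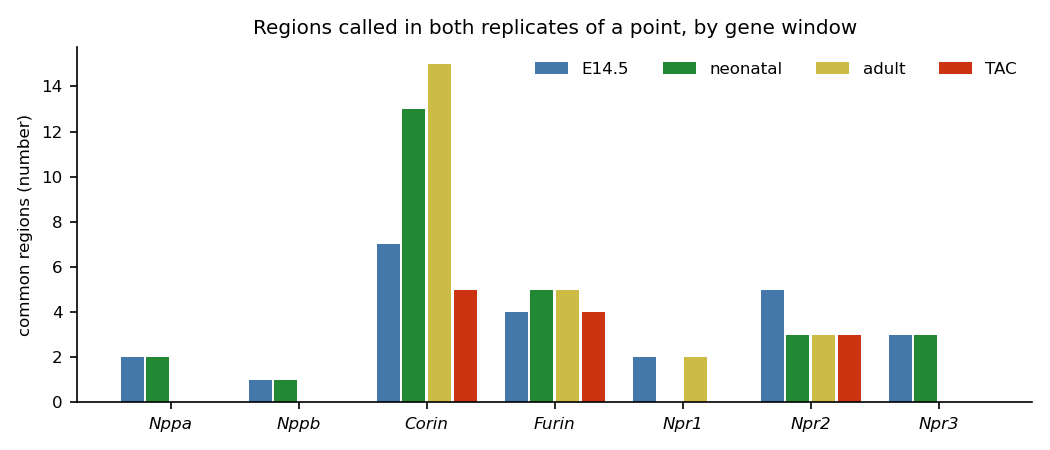
Number of regions called in both replicates of a point, for each gene window and point. Nppa, Nppb and Npr3 have such regions at E14.5 and in neonatal CMCs and none in adult or TAC CMCs, as 8.45% of all genes tested, and Corin has 7, 13, 15 and 5. The TAC bars need TAC replicate 2, whose peaks were displaced, and Nppb has no neonatal region where at least 50% of both peaks must be shared.

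Over the 7 windows the common regions numbered 24, 27, 25 and 12 in the order of the points. A region in both the *Nppa* and the *Nppb* window counts in each, and counted once they numbered 23, 26, 25 and 12. The last number rests on TAC replicate 2, whose peaks were displaced. TAC replicate 1 alone had 55 peaks in the windows. Peaks were denser in CpG than the rest of the window for 6 of the genes. In *Npr1*, bases under any list had 3.29 CpG per 100 bp and the rest 1.17. In *Nppa* they had 1.97 and 1.23, and in *Corin* 1.21 and 0.756. *Furin* went the other way, with 1.74 under peaks and 3.03 elsewhere. Its CpG-rich promoter, at 1 of 2 start sites, holds 51 CpG in 300 bases (chr7:80402763-80403062) and carried no peak in any list. The other *Furin* promoter (chr7:80405387-80405686) holds 7 CpG in 300 bases and met peaks of adult replicate 2 and TAC replicate 2. A peak within 1 kb of a *Furin* start site was found in 7 lists, all but adult replicate 1.

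The pathway list held 19 other genes, among them ligands, peptidases, cyclic GMP kinases, phosphodiesterases and soluble cyclases. Of the 19, 3 reached an unadjusted exact p under 0.05, against 7.57% of all genes, and 0 passed after adjustment. In limma 1 did so unadjusted, against 13.1% of all genes. This was *Gucy1a1*, a soluble cyclase subunit, with means of 8.61, 5.78, 3.43 and 1.45% in the order of the points. *Pde3a*, a phosphodiesterase inhibited by cyclic GMP, had 6.43 and 5.41% under peaks of the E14.5 lists, 9.74 and 9.64% of the neonatal, 11.5 and 12.3% of the adult and 8.68 and 7.02% of the TAC lists (exact p = 0.00952, adjusted p = 0.577). *Pcsk6*, the protease that activates corin, had 9.04 and 7.17%, then 6.72 and 5.02%, then 2.08 and 4.12%, then 3.46 and 3.57% (exact p = 0.0286). *Prkg1*, the main cyclic GMP kinase of muscle, had 1.94 and 2.41%, then 2.28 and 2.53%, then 0.784 and 1.28%, then 1.21 and 1.78% (exact p = 0.0476). Leaving out 1 list at a time left 1 to 3 of the 19 under 0.05, and without both TAC lists the smallest possible p is 0.0667. From neonatal to adult, 10 of the 19 lay below and 1 above, against 22.6 and 15.1% of all genes. From E14.5 to neonatal CMCs, 3 lay below and 5 above, against 6.86 and 26.2%. From E14.5 to adult, 8 lay below and 3 above (19.5 and 28.3%), and from adult to TAC 4 below and 0 above (23.9 and 6.34%). *Nppc*, the gene of C-type natriuretic peptide, had 0 and 5.74%, 2.06 and 8.39%, 0 and 7.37%, and 2.63 and 7.85%, with replicate 2 the higher at each point.

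Over the 8 lists, the genes whose coverage followed the members most closely among 17363 searched were *Gnat2* for *Nppa* (r = 0.972), *Dhx58* for *Nppb* (0.964), *Pknox2* for *Npr1* (0.950) and *Tcf23* for *Npr2* (0.976). They were *Art2b* for *Npr3* (0.987), *Ppp4r2* for *Corin* (0.989) and *Copz1* for *Furin* (0.988). These are the highest of many and share the same libraries, so they are a description only.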

How the data were processed

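The authors aligned hMeDIP reads to mm10 with BWA 0.7.4-r385, marked duplicates with Picard, removed reads with a mapping quality under 10, and called peaks per replicate against input with HOMER in histone mode. The deposited lists hold peak positions and a score column, which is 1 in every row, so no signal or depth was used. Filtering on mapping quality lowers calls over repeats.

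From the positions, the percent of bases under peaks was computed for the curated RefSeq span (GRCm38.p6) of each protein-coding gene with 10 kb on each side. The 4 points were compared by an exact one-sided permutation test over 105 divisions into pairs, with Benjamini-Hochberg adjustment over 19722 genes covered in at least 1 list, and by limma 3.58.1 on the square root of the percentage. A common region is the bases called in both replicates. The samples were grouped by their labels. The exact p is the share of divisions whose sum of squares within pairs was no larger than that of the real pairs. The limma p uses a variance taken over the points and moderated over the genes. Both rest on 2 replicates per point. Members, lists and tests were chosen with earlier results of these data known. Named genes are the 7 members, genes in the 60 kb, listed pathway genes with p under 0.05, markers, and the gene of highest Pearson r per member. *Nppc* and *Fes* were named after their values were seen. Both tests were first run on simulated data with known answers. Python 3.11.15, numpy 2.4.6, pysam 0.24.0 and R 4.3.3 were used. One *Npr3* region is not reported here.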

Additional observations from a re-analysis of the deposited data

How the results depend on the processing

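Of 230 alternative values, 186 kept their side of the threshold or stayed within 1.5 times the reported count. Among the 230 were 119 p-values of the 7 genes, which all began above 0.05, and 117 of these stayed there. Without both TAC lists a p under 0.05 was not possible in the exact test, so the total is not a measure of robustness. By the exact test, the number of the 7 genes with p under 0.05 over the 4 points was 0, and ranged from 0 to 1 when each list was left out (*Nppb* without adult replicate 1, exact p = 0.0381). Replicate differences correlated at -0.288 to 0.240 between points over 19722 genes, which cannot decide whether the replicate numbers pair the samples. For neonatal and adult CMCs the correlation was 0.186. At both of these points replicate 1 had the control library scaled and replicate 2 the precipitated library. With a replicate block in the exact test (24 divisions) 1 gene passed, *Npr3* at the smallest possible p of 0.0417. Of the 19722 genes tested, 1022 passed with this block. For the 60 kb, p ran from 0.00952 to 0.838 when each list was left out. The 3 pathway genes became 1 with equal peak numbers, relative coverage or limma, 5 without flanks, 0 without both TAC lists (chosen after seeing the data, smallest possible p 0.0667) and 1 to 3 with each list left out. Over all genes, 1492 became 744 with peak centres, 0 without TAC, 2581 with limma and 2403 with limma and a replicate block. Genes whose lists did not overlap from E14.5 to neonatal numbered 3, and 1 with equal peak numbers, peak centres or no flanks, and 3 to 7 with a list left out. From neonatal to adult they numbered 2, then 4 with equal peak numbers, 1 without flanks, where *Corin* overlapped, and 3 to 6 with a list left out. With a list left out, orders turned. In this step *Nppa* and *Nppb* lay above without adult replicate 1 and below without adult replicate 2, and *Npr1* lay below without neonatal replicate 1 and above without neonatal replicate 2. Which replicate was left out likewise turned *Npr1*, *Npr2* and *Furin* from E14.5 to neonatal, *Nppa*, *Npr2* and *Corin* from adult to TAC, and *Nppa*, *Nppb*, *Npr2* and *Furin* from E14.5 to adult. From adult to TAC they numbered 1, and 3 to 5 with a list left out; from E14.5 to adult 3, and 3 to 7. With a list left out the remaining one stands alone, so an order is met more easily. Common regions of 24, 27, 25 and 12 from E14.5 to TAC became 69, 85, 87 and 87 if either replicate sufficed. They became 16, 16, 14 and 2 if at least 50% of both peaks had to be shared. The cause of these changes was not tested. The lists hold no read numbers and depth was not used here, so a missing peak and low depth were not told apart.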
